A study of Sus scrofa with 9 samples.

Results

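The miR-15/16 and miR-103/107 families were followed in small RNA sequencing libraries of porcine (Sus scrofa) metaphase II (MII) oocytes, pronuclear (PN) embryos and sperm. Members were all entries of the count table whose name, with the species prefix removed, was that of miR-15, miR-16, miR-195, miR-497, miR-424 (or its rodent name miR-322), miR-503, miR-103 or miR-107, on either arm and with any end variant. This gave 19 names of 1313 in the table, which stand for 15 mature arms. The prefixes (ssc for pig, ocu, oan, pal, mmu and dno) name the species of the reference entry, and every read came from pig material. The suffixes (R-1, R+2, 1ss22AT) mark variants of the reference entry and were kept as spelled, since the sources used here do not define them.

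The study asked which RNAs sperm bring into the oocyte at fertilization, and it compared MII oocytes, PN embryos and mature sperm, with 3 libraries in each group. None of the groups had received a treatment or carried a genetic change. The oocytes were matured in vitro inside their cumulus complexes from ovaries of postpubertal gilts and then stripped of cumulus cells, and the PN embryos were made by in vitro fertilization of such oocytes. RNA came from large pools of oocytes or embryos, and nothing in the sources says that the 3 libraries of a group came from separate animals or pools, so the p-values measure only the spread between these libraries. The sequenced sperm were purified mature sperm of Large White boars, whereas the methods give Landrace boars as the source of semen for fertilization. Stages after the PN embryo were not measured here.

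The miR-15/16 group is a set of miRNAs with one shared seed (closely related in miR-503), the short stretch at the 5′ end that pairs with target mRNAs. They are known as brakes on the cell cycle and on survival, through targets such as cyclin D1, cyclin E1 and BCL2. In pigs as in other mammals they are made from several short clusters: miR-15a with miR-16, miR-15b with miR-16, miR-497 with miR-195, and miR-424 with miR-503. miR-103 and miR-107 have closely similar mature sequences, lie inside the genes for pantothenate kinases, the enzymes that start coenzyme A synthesis, and are known to repress Dicer and genes of insulin signalling. Their seed resembles that of miR-15/16 with a shift, which is why the 2 groups are often described together.

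In the RefSeq gene table for Sscrofa11.1, the genome build the submitters' notes name, 9 genes of these families were found. MIR15A (chr11:17757463-17757541) and MIR16-2 (chr11:17757606-17757684) lay 64 bases apart. MIR15B (chr13:100083172-100083269) and MIR16-1 (chr13:100083329-100083405) lay 59 bases apart within the span of SMC4, the gene of a condensin subunit. MIR195 (chr12:52422039-52422118) and MIR497 (chr12:52422329-52422408) lay 210 bases apart within the non-coding gene LOC102161115. MIR103-1 (chr16:55329442-55329523), MIR103-2 (chr17:31808837-31808916) and MIR107 (chr14:101420743-101420829) lay within the spans of PANK3, PANK2 and PANK1. The table gives gene spans alone, so exon or intron was not resolved. Genes named MIR424, MIR322 or MIR503 were looked for and not found in this annotation, so miR-424 and miR-503 have no position here.

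Because mature miR-16 is the same from both of its loci, the table held it in 2 rows with identical values, and the rows of ssc-miR-16 and of ssc-miR-103 were summed. A single ssc-miR-16 row was not a whole number in 8 of 9 libraries and the sum was whole in all 9, as when each read is divided between the loci. The sum of ssc-miR-103 was whole in 4 libraries, and ssc-miR-103 plus ssc-miR-107_R-2 was whole in all 9. Some reads were therefore divided between miR-103 and miR-107 as well, and the split between these miRNAs is uncertain while their sum is not. The chromosome 11 and chromosome 13 copies of miR-16 cannot be told apart in these data.

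Total counts were 289183 to 381674 in the MII oocyte libraries, 422630 to 771001 in the PN embryo libraries and 1640492 to 2455102 in the sperm libraries, so that depth and group cannot be told apart. Levels are given as CPM (counts scaled to a table total of 1000000). Whole values below 5 reads were rare in the table (33 of 4606 above 0, against 258 equal to 5), so a name listed at 0 was read as below 5 reads, which is 13.1 to 17.3 CPM in MII oocytes, 6.49 to 11.8 CPM in PN embryos and 2.04 to 3.05 CPM in sperm. These limits cover counting error only. The labelled cells were checked against miRNA markers: miR-34b, miR-34c, miR-449a and miR-449b summed to 151499 to 153743 CPM in sperm and to 2036 to 2455 CPM in the other libraries, and miR-371 stood at 1087 to 1286 CPM in oocytes and embryos and at 0 in sperm. miR-302 was at 16.9 to 35.5 CPM in PN embryos and at 0 in MII oocytes and sperm, and miR-449c, miR-372 and miR-373 were not listed. The epithelial miRNA miR-205 took 451738 to 493262 CPM in oocytes and embryos against 76.2 to 84.7 CPM in sperm, and this weighs on every CPM set between sperm and the other groups. The other epithelial markers did not share this pattern: miR-200a, miR-200b, miR-200c and miR-429 had higher mean CPM in sperm than in MII oocytes (619 against 84.5, 4071 against 250, 1888 against 1087 and 40.4 against 0), and miR-141 a lower one (33.1 against 94.8).

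Together the families took 1.58% ± 0.0166 (SD, n = 3) of all counts in MII oocytes, 1.77% ± 0.0158 in PN embryos and 4.12% ± 0.0525 in sperm, and the groups did not overlap. With repeated names counted once in place of summed, an alternative added after seeing the data, the shares were 1.029%, 1.14% and 2.726%, in the same order. The miR-15/16 group accounted for most of the difference: 0.330% ± 0.0202 of counts in MII oocytes, 0.445% ± 0.00524 in PN embryos and 2.26% ± 0.0360 in sperm. miR-103 and miR-107 together took 1.25% ± 0.00374, 1.32% ± 0.0114 and 1.87% ± 0.0871. With miR-205 left out of the totals, the order for miR-103 and miR-107 turned, at 2.38% ± 0.0873, 2.43% ± 0.0356 and 1.87% ± 0.0872, whereas the miR-15/16 group kept its order at 0.626% ± 0.0248, 0.815% ± 0.0120 and 2.26% ± 0.0363.

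**Figure D1:**
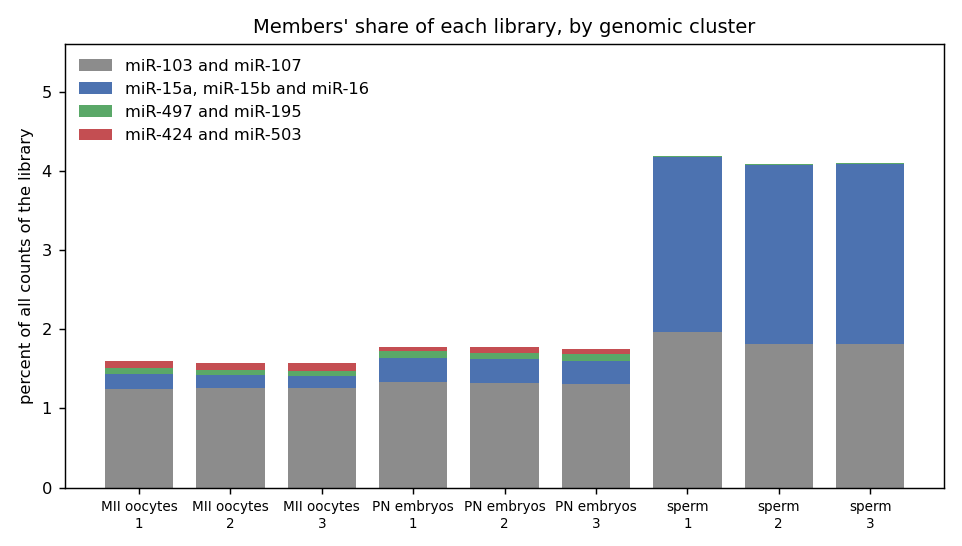
Stacked bars give the percent of all counts in each of the 9 libraries taken by 4 sets of members: miR-103 and miR-107, the miR-15a, miR-15b and miR-16 clusters, miR-497 with miR-195, and miR-424 with miR-503. The sperm bars reach 4.08% to 4.18% against 1.57% to 1.78% in the other libraries, the miR-424 and miR-503 segment is missing from sperm, and the higher sperm segment of miR-103 and miR-107 turns lower when miR-205 is left out of the totals.

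The make-up of the families also differed between the groups. Of the members' own counts, which do not depend on miR-205, the miR-15a, miR-15b and miR-16 clusters held 10.9% ± 0.708 in MII oocytes, 16.9% ± 0.230 in PN embryos and 54.5% ± 1.53 in sperm. miR-497 with miR-195 held 4.19% ± 0.560, 4.51% ± 0.506 and 0.226% ± 0.00870. miR-424 with miR-503 held 5.71% ± 0.239 in MII oocytes and 3.78% ± 0.543 in PN embryos and none in sperm. miR-103 and miR-107 held the rest, 79.2% ± 1.05, 74.9% ± 0.140 and 45.2% ± 1.54. The miR-15/16 clusters thus lay on opposite sides: those of miR-15a and miR-15b took their largest share in sperm, and the other clusters in oocytes or embryos.

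miR-16 was the most abundant member of its group in every library. It stood at 1617, 1541 and 1421 CPM in the MII oocyte libraries, at 2648, 2579 and 2512 CPM in the PN embryo libraries and at 15613, 15588 and 15862 CPM in the sperm libraries. The 3 groups did not overlap and lay in the order MII oocytes, PN embryos, sperm. The fitted difference between PN embryos and MII oocytes was 0.69 ± 0.06 (log2 fold change ± SE, q = 2.13e-05, edgeR), which is 1.69-fold in mean CPM and below the fold threshold of 1 on the log2 scale. Sperm lay above MII oocytes by 3.42 ± 0.06 (q = 3.34e-12) and above PN embryos by 2.73 ± 0.05 (q = 1.17e-11). By mean CPM ssc-miR-16 ranked 59 among all names in MII oocytes, 41 in PN embryos and 20 in sperm.

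miR-15b, the cluster partner of miR-16 on chromosome 13, is the other product of that locus. ssc-miR-15b_R-1 stood at 168, 201 and 111 CPM in MII oocytes, at 331, 352 and 318 CPM in PN embryos and at 4360, 4740 and 4591 CPM in sperm. Again no library of one group reached into another. Sperm exceeded MII oocytes by 4.89 ± 0.14 (q = 1.43e-10) and PN embryos by 3.90 ± 0.11 (q = 1.99e-10). For PN embryos against MII oocytes the difference was 0.99 ± 0.16 (q = 0.0015), just inside the fold threshold of 1. It ranged from 0.80 to 1.20 over its 20 alternatives and was called in 6 of them.

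The 3p arm of miR-15b, the strand opposite the usual guide, was listed as pal-miR-15b-3p_R-1_1ss1CT. It was at 0 in the 3 MII oocyte libraries, at 0, 34.5 and 23.4 CPM in PN embryos (0, 24 and 18 reads) and at 1359, 1513 and 1525 CPM in sperm. Sperm was at least 93.4-fold higher than MII oocytes, taking 5 reads per library as the most an unlisted name could hold. Against PN embryos sperm lay 6.18 ± 0.33 higher (q = 2.86e-07, edgeR). The name passed the filter on low counts only through sperm, the group where it was highest, so its calls with sperm are descriptions and support nothing. The difference between PN embryos and MII oocytes did not pass (q = 0.06), but it did under 5 alternatives, among them leaving out PN embryo library 1, which lacked this name. In sperm the 3p arm made up 23.8%, 24.2% and 24.9% of miR-15b counts. In PN embryos it made up 0%, 8.92% and 6.84%, with up to 3.45% possible in the library at 0, and in MII oocytes up to 7.25%, 7.69% and 13.5% would have gone unlisted. The sperm share was thus above what any MII oocyte library could hide, while the PN embryo shares were within that range.

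miR-15a, which pairs with miR-16 on chromosome 11, was lower than miR-15b in all groups. It stood at 65.5, 0 and 65.7 CPM in MII oocytes (25, 0 and 19 reads), at 33.1, 47.5 and 40.2 CPM in PN embryos and at 574, 581 and 587 CPM in sperm. Sperm lay apart from both other groups, which overlapped each other. Sperm exceeded MII oocytes by 3.74 ± 0.39 (q = 7.19e-06) and PN embryos by 3.95 ± 0.35 (q = 1.54e-06). PN embryos differed from MII oocytes by −0.20 ± 0.56 (q = 0.93), a value that turned to 0.42 without MII oocyte library 1 and to 0.11 without library 3. Without MII oocyte library 1 the difference of sperm from MII oocytes was 4.44. Of the 5p counts of miR-15a and miR-15b together, miR-15b held 88.4% to 89.1% in sperm and 88.1% to 90.9% in PN embryos. The corresponding MII oocyte shares were 71.9%, 100% and 62.7%, on 32 to 64 reads of miR-15b.

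The 3p arm of miR-16, ocu-miR-16b-3p_R-1, was at 0 in MII oocytes, at 0, 11.5 and 6.49 CPM in PN embryos and at 157, 162 and 180 CPM in sperm. Sperm was at least 10.6-fold higher than MII oocytes, and 4.72 ± 0.39 higher than PN embryos on the log2 scale (q = 6.47e-06, edgeR), or 5.43 without PN embryo library 2. This name too passed the filter on low counts only through sperm, so its calls with sperm are descriptions and support nothing. PN embryos did not pass against MII oocytes (q = 0.0929), at 8 and 5 reads in the libraries that listed it, but passed by DESeq2 and without PN embryo library 1. The 2 remaining 3p names, ocu-miR-16a-3p_R-1 and ocu-miR-15a-3p_1ss22AT, were listed at 5 to 7 reads in 2 libraries each and were not tested.

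**Figure D2:**
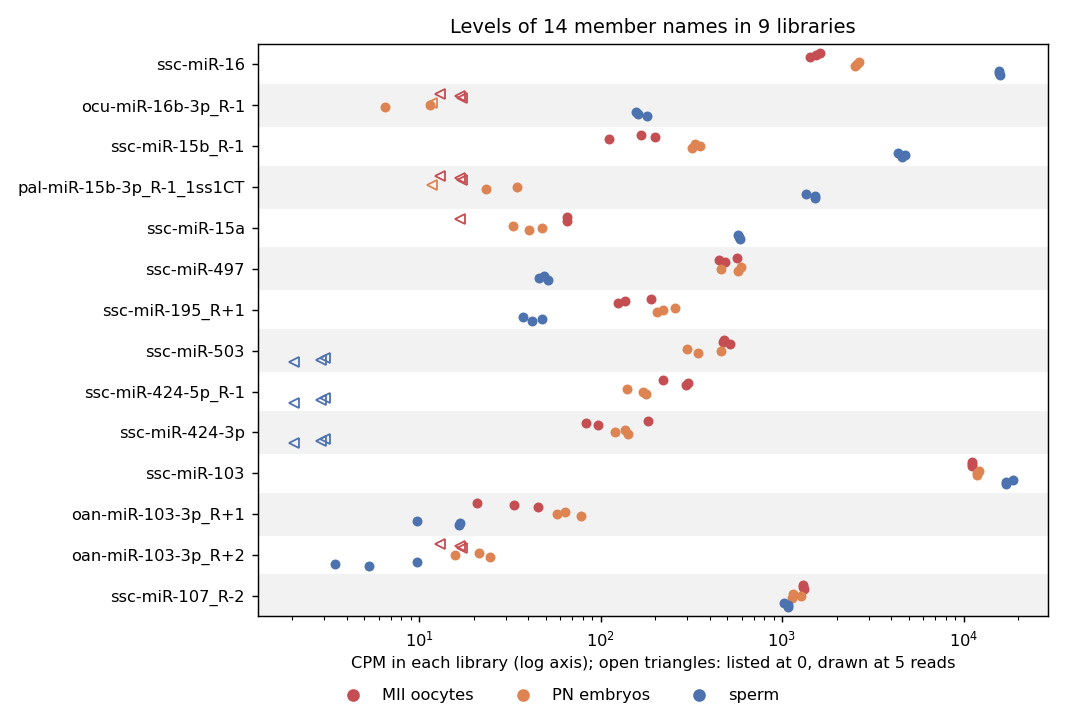
Points give CPM in each library on a log axis for 14 member names, coloured by group, and open triangles mark libraries listed at 0, drawn at the CPM of 5 reads. miR-16, miR-15b and miR-15a lie farthest right in sperm, miR-497, miR-195, miR-503 and miR-424 lie farthest left in sperm, and miR-103 and miR-107 each span a narrow range of CPM.

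The other clusters ran the opposite way between sperm and the oocyte and embryo samples. miR-497, whose cluster is known for a part in the exit of heart muscle cells from the cell cycle, stood at 563, 448 and 484 CPM in MII oocytes, at 596, 462 and 572 CPM in PN embryos and at 48.8, 45.6 and 51.3 CPM in sperm. The oocyte and embryo libraries overlapped (0.05 ± 0.13, q = 0.943), and sperm lay below both. The difference of sperm was −3.30 ± 0.15 from MII oocytes (q = 7e-09) and −3.34 ± 0.14 from PN embryos (q = 3.61e-09).

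miR-195, transcribed beside miR-497, stood at 189, 137 and 125 CPM in MII oocytes, at 258, 222 and 205 CPM in PN embryos and at 37.2, 47.3 and 42.0 CPM in sperm as ssc-miR-195_R+1. Sperm was again the lowest group, with a difference of −1.78 ± 0.20 from MII oocytes (q = 1.42e-05) and of −2.29 ± 0.18 from PN embryos (q = 6.78e-07). The PN embryo libraries lay above those of MII oocytes without overlap, and the difference of 0.51 ± 0.19 did not pass (q = 0.081). The partners did not keep one ratio: miR-497 held 73.1%, 76.6% and 76.1% of their joint counts in MII oocytes, 68.1%, 66.0% and 70.1% in PN embryos and 53.7%, 47.6% and 55.0% in sperm, with no overlap between groups. Another listed form, mmu-miR-195a-5p_R+2, was at 0 to 38.9 CPM throughout and on at most 30 reads in a library.

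miR-503 and miR-424 were listed in every oocyte and embryo library and in no sperm library. They belong to one X-linked cluster, known for slowing the cell cycle through targets such as CDC25A. ssc-miR-503 stood at 480, 475 and 519 CPM in MII oocytes and at 298, 460 and 346 CPM in PN embryos. ssc-miR-424-5p_R-1 stood at 220, 304 and 297 CPM in MII oocytes and at 140, 171 and 178 CPM in PN embryos. ssc-miR-424-3p stood at 183, 83.6 and 96.8 CPM in MII oocytes and at 137, 121 and 141 CPM in PN embryos. For miR-503 and the 5p arm of miR-424 the MII oocyte libraries all lay above the PN embryo libraries, and for the 3p arm the groups overlapped.

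Against sperm, with its 0 counts read as 5 reads per library, MII oocytes were at least 185-fold higher for miR-503, at least 103-fold higher for the 5p arm of miR-424 and at least 45.7-fold higher for its 3p arm. The matching bounds for PN embryos were 139-fold, 61.3-fold and 50.1-fold. All 3 names passed the edgeR test in both comparisons with sperm, with q from 2.01e-08 to 1.31e-06. They passed the filter on low counts only through the oocyte and embryo libraries, where they were high, so these calls are descriptions and support nothing. Between PN embryos and MII oocytes the 5p arm of miR-424 differed by −0.80 ± 0.19 (q = 0.0171), within the fold threshold, and miR-503 by −0.47 ± 0.17 (q = 0.0805), which did not pass. The 3p arm held 45.5%, 21.6% and 24.6% of miR-424 counts in MII oocytes and 49.6%, 41.4% and 44.3% in PN embryos, so that MII oocyte library 1 lay with the embryos. Another miR-503 form, dno-miR-503-5p_R+2, was listed in 3 oocyte or embryo libraries at 7 to 10 reads, was at 0 in sperm and was not tested.

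miR-450a, miR-450b, miR-450c and miR-542 lie together on the X chromosome (chrX:110381587-110382676). They are known as cluster partners of miR-424 and miR-503, whose own positions were not found here. Their 4 names summed to 69.2 to 165 CPM in MII oocytes, 114 to 156 CPM in PN embryos and 6.92 to 11.0 CPM in sperm. Of the 3 tested, 2 were called lower in sperm than in MII oocytes, against 40.7% of all names, and 3 lower than in PN embryos, against 47.4%. These 3 passed the filter on low counts only through the oocyte and embryo libraries, so their calls are descriptions and support nothing. Between PN embryos and MII oocytes their differences were −0.29, 0.72 and 0.10 with q of 0.669 or more. ssc-miR-450c-5p, the most abundant, was lower in sperm, with a difference of −4.51 ± 0.39 from MII oocytes (q = 1.69e-06) and of −4.61 ± 0.38 from PN embryos (q = 8.56e-07), and ssc-miR-450b-5p_R-1 differed from MII oocytes by −1.46 ± 0.91 (q = 0.155). Unlike miR-424 and miR-503, miR-450c was listed in all sperm libraries, at 2.13 to 3.67 CPM, but on only 3.5, 5 and 9 reads, near the limit of listing. miR-450a had the same 3.5 and 5 reads in sperm libraries 1 and 2, as when reads are divided between the 2 names.

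miR-103 was the most abundant member in all 9 libraries. It stood at 11158, 11194 and 11183 CPM in MII oocytes, at 12115, 11905 and 11883 CPM in PN embryos and at 18603, 17056 and 17047 CPM in sperm, and ranked 12, 11 and 17 by mean CPM. The libraries of each group lay close together and the groups did not overlap. After TMM scaling PN embryos differed from MII oocytes by 0.03 ± 0.04 (q = 0.755), whose sign turned under some alternatives. Sperm differed from MII oocytes by 0.71 ± 0.04 (q = 7.74e-08) and from PN embryos by 0.68 ± 0.04 (q = 1e-07), below the fold threshold, and both turned negative, to −0.28 and −0.32, with miR-205 left out of the totals.

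That scaling moved all names: over the 587 names tested, the median log2 fold change of sperm moved from 0.0 to −0.82 when compared with MII oocytes, and from −0.52 to −1.52 when compared with PN embryos. Relative to the median of all names, miR-103 lay 0.71 higher in sperm than in MII oocytes under TMM and 0.54 higher without miR-205, and miR-16 lay 3.42 and 3.25 higher. miR-107 lay at −0.24 and −0.41 from the median in that comparison, and at 0.49 from it in sperm against PN embryos under both scalings. miR-497 lay at −3.30 and −3.46 from the median for sperm against MII oocytes.

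miR-107 was close in all groups on the CPM scale. ssc-miR-107_R-2 stood at 1298, 1301 and 1321 CPM in MII oocytes, at 1148, 1274 and 1135 CPM in PN embryos and at 1031, 1074 and 1076 CPM in sperm. The groups did not overlap in CPM, in the order MII oocytes, PN embryos, sperm, which is the reverse of miR-103. None of its differences was called under TMM scaling: −0.21 ± 0.07 between PN embryos and MII oocytes (q = 0.0662), −0.24 ± 0.07 between sperm and MII oocytes (q = 0.00889) and −0.03 ± 0.07 between sperm and PN embryos (q = 0.66), the last of which changed sign under 13 of its alternatives. With miR-205 left out of the totals it was called lower in sperm, at −1.23 against MII oocytes (q = 4.34e-08) and −1.03 against PN embryos (q = 1.09e-07, edgeR). Within libraries, where scaling cancels, miR-107 held 10.4%, 10.4% and 10.5% of miR-103 and miR-107 counts in MII oocytes, 8.60%, 9.61% and 8.65% in PN embryos and 5.25%, 5.92% and 5.93% in sperm. These shares fell into 3 separate ranges and rest on reads that were in part divided between the miRNAs.

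miR-103 was also listed in other forms, oan-miR-103-3p_R+1 and oan-miR-103-3p_R+2. The first stood at 21.0, 33.4 and 45.0 CPM in MII oocytes, at 63.9, 57.5 and 77.8 CPM in PN embryos and at 9.75, 16.7 and 16.7 CPM in sperm. It was lower in sperm, with a difference of −1.10 ± 0.39 from MII oocytes (q = 0.021, edgeR) and of −2.06 ± 0.33 from PN embryos (q = 0.000186). This name passed the filter on low counts only through the oocyte and embryo libraries, so its calls with sperm are descriptions and support nothing. The difference between PN embryos and MII oocytes, 0.96 ± 0.37, did not pass (q = 0.0885). The R+1 form is given although its arm has a more abundant name, a choice made after its values were seen.

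The R+2 form was at 0 in the 3 MII oocyte libraries, at 21.3, 15.8 and 24.6 CPM in PN embryos (9, 11 and 19 reads) and at 9.75, 3.46 and 5.30 CPM in sperm. PN embryos were at least 1.31-fold higher than MII oocytes. The name passed the filter on low counts only through PN embryos, the group where it was highest, so that its call there (q = 0.00709, edgeR) is a description and supports nothing. The call was lost with the replicate number as a block (q = 0.0522), and the name was no longer tested without PN embryo library 3, at equal depth or with only these groups in the fit. Its mean in sperm was below the CPM of 5 reads in MII oocytes, so no fold is given there although the fit called it. The call between sperm and PN embryos (−1.61 ± 0.56, q = 0.0239) was lost under 6 of its alternatives, among them leaving out PN embryo library 1 or 2 or sperm library 2 or 3. Together the R+1 and R+2 forms made up 0.188%, 0.298% and 0.400% of miR-103 counts in MII oocytes, 0.698%, 0.612% and 0.855% in PN embryos and 0.105%, 0.118% and 0.129% in sperm. Each group held a range of its own, with PN embryos highest. The last name, ocu-miR-103a-2-5p_R+1 of the opposite arm, was listed in 1 sperm library at 6 reads.

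**Figure D3:**
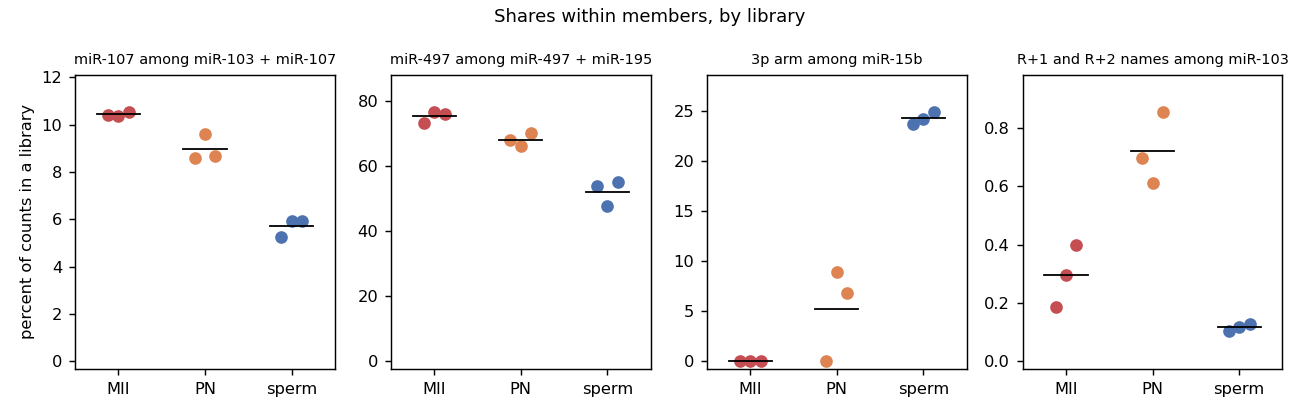
Points give, for each library, the percent of counts held by one product within a set: miR-107 within miR-103 and miR-107, miR-497 within miR-497 and miR-195, the 3p arm within miR-15b, and the R+1 and R+2 forms within miR-103, with a line at each group's mean. The first 2 shares are highest in MII oocytes and lowest in sperm, and the 3p share is highest in sperm at 23.8% to 24.9%. The R+1 and R+2 forms of miR-103 are highest in PN embryos at 0.612% to 0.855%.

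Within MII oocytes the members stood, by mean CPM, in the order miR-103, miR-16, miR-107, miR-497 and miR-503, the 5p arm of miR-424, then miR-15b, miR-195 and the 3p arm of miR-424, and miR-15a. miR-497 at 498 ± 59.1 CPM and miR-503 at 491 ± 24.2 CPM did not differ beyond their spread, nor did miR-15b at 160 ± 45.5, miR-195 at 150 ± 34.0 and the 3p arm of miR-424 at 121 ± 54.2 CPM. Within sperm the order was miR-103 at 17569 ± 896 CPM, miR-16 at 15688 ± 151, miR-15b at 4564 ± 191, its 3p arm at 1466 ± 92.9, miR-107 at 1060 ± 25.6, miR-15a at 581 ± 6.17 and the 3p arm of miR-16 at 166 ± 12.1. miR-497 at 48.6 ± 2.88 and miR-195 at 42.2 ± 5.06 CPM followed. These are read levels of miRNAs of near equal length, and no correction was made for how well each one ligates.

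Counted over the families, 15 names of 19 had enough reads to be tested, and a name was called where q was below 0.05 and the log2 fold change was 1 or more in size. Between PN embryos and MII oocytes 1 of the 15 was called, the R+2 form of miR-103 that was tested only because of its level in PN embryos, against 12.9% of all 587 names (11.2% higher and 1.7% lower). At q alone 4 of the 15 passed (miR-16, miR-15b, the 5p arm of miR-424 and the R+2 form) against 25.2% of all names. The libraries of the 2 groups did not overlap in 9 of the 15, against 39.5% of all names. Summed to mature arms, 0 of 12 tested were called against 7.66% of 483 arms, with 8 of the 12 at an unadjusted p below 0.05 (32.3% of all arms) and 2 called by DESeq2 (9.94% of all arms).

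Between sperm and MII oocytes 12 of the 15 names were called, 6 higher (the R+2 form of miR-103 among them) and 6 lower in sperm, against 83.0% of all names (42.2% higher and 40.7% lower). Between sperm and PN embryos 13 were called, 5 higher and 8 lower, against 86.2% (38.8% higher and 47.4% lower). Of these names, the 3p arms of miR-15b and miR-16 passed the filter on low counts only through sperm. miR-503, both arms of miR-424, mmu-miR-195a-5p_R+2 and the R+1 form of miR-103 passed only through oocytes and embryos. The R+2 form of miR-103 passed only through PN embryos. Calls of these names against the groups where they were low are descriptions and support nothing. Summed to mature arms, 10 of 12 were called in each comparison, 5 in each direction, against 83.0% (40.8% higher and 42.2% lower) and 82.8% (39.5% and 43.3%). The members' counts were thus near the background of the table, in which most names differed between sperm and the other samples. The comparisons share groups and are not independent of each other.

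**Figure D4:**
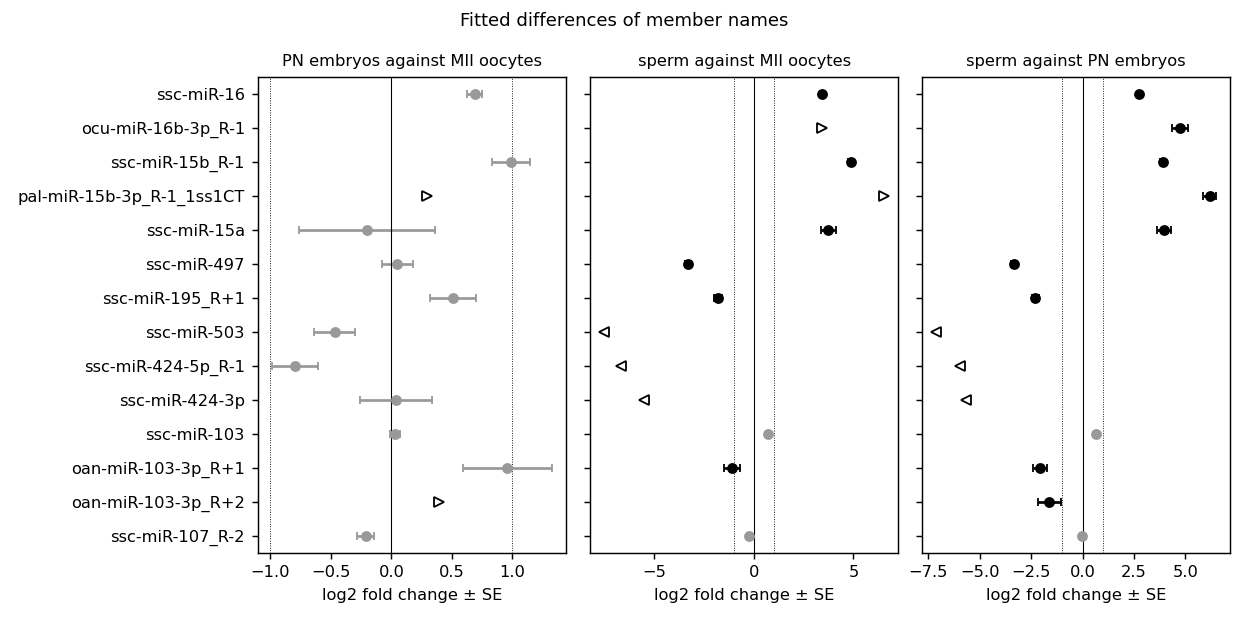
Points give the fitted log2 fold change ± SE of 14 member names in the 3 comparisons, black where called and grey where not, with dotted lines at the fold threshold, and the panels have different scales. Open triangles give the bound of a member at 0 in every library of one group, and where no bound could be given nothing is drawn. This leaves out ocu-miR-16b-3p_R-1 between PN embryos and MII oocytes and oan-miR-103-3p_R+2 between sperm and MII oocytes. In both sperm panels the miR-15a, miR-15b and miR-16 names lie to the right and the miR-497, miR-195, miR-503 and miR-424 names to the left. In the PN embryo panel the plotted fits lie between −0.80 and 0.99, and names at 0 in MII oocytes are shown by their bound or not at all. The small positive values of miR-103 in the sperm panels turn negative when miR-205 is left out of the totals.

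miRNAs that mark other cells moved beside some members. ssc-miR-451_R-1, an erythroid miRNA, was 2.24 ± 0.31 higher in PN embryos than in MII oocytes (q = 0.000478, edgeR), at 483 to 550 CPM against 62.2 to 134 CPM. ssc-miR-144_R+1, from the same erythroid cluster, was 2.92 ± 0.85 higher (q = 0.0285). The 2 miR-144 names together stood at 140 to 164 CPM in PN embryos but at only 20.8 to 28.8 CPM in MII oocytes. That is near the limit of listing, so this call rests on few oocyte reads. The other blood names tested did not pass. Their differences were 2.09 ± 0.74 for ocu-miR-144-5p (q = 0.0805), 0.48 ± 0.19 for ssc-miR-486 (q = 0.0955) and −0.06 ± 0.60 for ssc-miR-142-5p_L+2R-2. The 6 blood markers summed to 166 to 314 CPM in MII oocytes, 837 to 876 in PN embryos and 268 to 380 in sperm, with miR-223 at 0 in MII oocytes and miR-150 at 0 in PN embryos. miR-16, which is also abundant in red blood cells, was higher in PN embryos as well, and the part of blood RNA in its difference was not tested. The summed blood markers of sperm overlapped the range of MII oocytes, with single markers going both ways. Mean CPM was higher in sperm for miR-142 (92.1 against 33.15), miR-486 (128 against 93.2), miR-223 (11.8 against 0) and miR-150 (8.30 against 4.37). It was lower for miR-451 (73.4 against 102) and miR-144 (5.97 against 24.3). The part of blood RNA in the miR-16 level of sperm was not tested.

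Of the sperm markers, ocu-miR-34b-3p_1ss10CT was 0.92 ± 0.09 higher in PN embryos than in MII oocytes (q = 4.37e-05) and cfa-miR-449a 1.03 ± 0.28 higher (q = 0.0235), whereas the difference of ssc-miR-34c was −0.40 ± 0.07 (q = 0.00154). Their sum was 2036 to 2099 CPM in MII oocytes and 2250 to 2455 CPM in PN embryos. miR-16 and miR-15b, both highest in sperm, were higher in PN embryos by 0.69 and 0.99, and the part of sperm RNA in these differences was not tested. The 6 cumulus and granulosa markers summed to 832 to 934 CPM in MII oocytes, 1204 to 1300 in PN embryos and 4368 to 4495 in sperm, where miR-132 and miR-383 made up most of the sum. The list was not uniform: the mean CPM of oocytes, embryos and sperm was 89.2, 59.6 and 32.6 for miR-143, 11.0, 17.8 and 0.962 for miR-145 and 38.0, 61.9 and 0.962 for miR-224, so these were low in sperm, as miR-424 and miR-503 were. The part of these markers in the levels of miR-424 and miR-503 was not tested. In bulk RNA of this kind fewer cells of a type and less RNA per cell cannot be told apart.

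Names whose pattern over the 9 libraries was most like that of ssc-miR-16 were sought among 249 others with a mean of at least 100 CPM, by the mean absolute difference of log2(CPM + 1) after each name's own mean was removed. They were ssc-miR-151-5p at 0.173, cfa-miR-383 at 0.207 and ssc-miR-342_R-2 at 0.209. ssc-miR-151-5p stood at 2959 ± 292 CPM in MII oocytes, 3768 ± 140 in PN embryos and 23511 ± 1624 in sperm. For ssc-miR-103 they were ssc-miR-30c-5p at 0.021, cfa-miR-200c at 0.102 and ssc-miR-185 at 0.106, and ssc-miR-30c-5p stood at 6885 ± 110, 7251 ± 110 and 10631 ± 593 CPM. The libraries share depth and totals within a group, so these distances describe the pattern alone.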

How the data were processed

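Small RNA libraries of MII oocytes, PN embryos and sperm (3 each) were sequenced. The authors deposited 1 table of raw, in part estimated counts per small RNA name. The submitters' processing notes name the genome build Sscrofa11.1, and the aligner and counting rule are not given in the sources used here. Of the values above 0, 19.82% were not whole, as when reads are shared among loci, and 105 repeated names carried identical rows. Rows of the same name were summed (1420 rows to 1313 names), rounded for the tests, and also summed to mature arms after the prefix and suffix were removed. All 9 sample columns were used.

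Differences were tested in R 4.3.3 by edgeR 4.0.16 (quasi-likelihood) with group as the only term, TMM scaling and filterByExpr (minimum count 10), in 1 fit of all 9 libraries. p-values were adjusted over all features tested by the Benjamini-Hochberg method (q). Names with q below 0.05 and a log2 fold change of size 1 or more were called, thresholds taken from the study's methods. SEs were the fold change divided by the square root of F. DESeq2 1.42.0 was an alternative. The fit was first tested on simulated counts. Replicates of a group differed by more than sampling noise (chi-square per degree of freedom 2.2 to 12.7). Same-numbered libraries did not deviate together (correlations −0.203 to 0.0285), so no pairing was used. Positions are from RefSeq. Sequences were not used here.

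Values are given for the most abundant name of each mature arm with a mean of at least 10 CPM in a group, and for members called between PN embryos and MII oocytes. The other members are summarised. The members, marker lists and alternatives were chosen with earlier results of these data known.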

Additional observations from a re-analysis of the deposited data

How the results depend on the processing

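Over 39 log2 fold changes of 13 named members, 22 kept their direction and their side of the threshold under every alternative run, and of 848 recomputed values 788 did so. The count of member names called between PN embryos and MII oocytes, 1 as reported, was 2 with library totals alone, without miR-205, without a filter, with at least 10 counts in 3 libraries or with identical rows counted once. It was 3 by DESeq2, 4 at q alone and 0 with only the groups compared, and 1 to 3 when each library was left out in turn. For mature arms the count of 0 was 1 with DESeq2 size factors, library totals alone, without miR-205, without a filter, with repeated names counted once or at equal depth, 2 by DESeq2, 3 at q alone and 0 to 3 with a library left out. The count of 3 in both came without PN embryo library 1. With sperm the counts with a library left out were 11 to 13 and 11 to 14 names and 10 mature arms. The causes were not tested.

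With the replicate number as a block, 0, 12 and 11 member names and 0, 10 and 10 mature arms were called, in the order PN embryos versus oocytes, sperm versus oocytes and sperm versus PN embryos. Of 6 libraries, 0, 0 and 3 correlated best with their own number in these comparisons. The share of the families, in alternatives chosen after seeing the data, was 1.029%, 1.14% and 2.726% with repeated names counted once, 3.008% and 3.24% in MII oocytes and PN embryos without miR-205, and 1.787% in PN embryos with identical rows counted once. Leaving out a library gave 1.57% to 1.59%, 1.76% to 1.78% and 4.09% to 4.14%.

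For PN embryos against MII oocytes miR-103 was at −0.004 with at least 10 counts in 3 libraries, −0.001 with only the groups compared and −0.036 at equal depth, miR-107 at 0.001 and miR-15a at 0.018 with identical rows counted once, and miR-497 at −0.08 at equal depth. With libraries left out, miR-15a ranged from −0.75 to 0.42, miR-497 from −0.037 to 0.28 and the 3p arm of miR-424 from −0.17 to 0.62. Without miR-205, miR-103 in sperm was at −0.275 against MII oocytes and −0.319 against PN embryos. miR-107 was called lower in sperm without miR-205, at −1.226 against MII oocytes and −1.035 against PN embryos. In sperm against PN embryos it was otherwise at 0.169 with DESeq2 size factors and by DESeq2, 0.177 without a filter, 0.099 with at least 10 counts in 3 libraries, 0.057 with only the groups compared and −0.065 to 0.22 with a library left out, and against MII oocytes at −0.26 to 0.0. Oocyte depth limits what a 0 there can show.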
